A study of Mesocricetus auratus with 21 samples.

Results

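Whole testes of golden hamsters (Mesocricetus auratus) at 21 days postpartum (dpp) were compared between wild-type males and males homozygous for a Mov10l1 deletion (Mov10l1-/-). The members of this comparison were the 4 libraries of that age, 2 wild-type and 2 Mov10l1-/-, out of 21 RNA-seq libraries of the series, which also covers 0, 9 and 13 dpp and adults. The mutant allele lacks exon 20 in every tissue and descends from a single transmitting founder female, whose descendants were crossed to outbred wild-type animals before homozygotes were produced. The labels carry one animal code per library. The second wild-type and the first Mov10l1-/- library share the part of the code before the animal number, which may mark a litter. This shared part is called a common code below, and the animals differ. The other 2 libraries each have a code of their own. None of the animals received a further treatment.

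Meiosis of the first spermatogenic wave reaches the pachytene stage in the hamster testis at about this age, so that wild-type tubules hold Sertoli cells, spermatogonia and primary spermatocytes. Mov10l1 encodes an RNA helicase that hands piRNA precursors to PIWI proteins. The small RNAs made from them guide the silencing of retrotransposons and, later, the cleavage of other transcripts in germ cells. The comparison asks what is left of the germ-line transcriptome without this helicase when meiosis should be under way, and which transcripts of the somatic cells differ with it.

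The deletion was made with pairs of guide RNAs that flank exon 20. Their designed DNA targets are shown because they define the allele; the labels give neither strand nor position beyond the intron, and the runs are printed 5′ to 3′ as given there.
Intron 19, first target: gggtatcacatgacttgggg
Intron 19, second target: ggtgttgggatcatagtgggg
Intron 20, first target: tctccactcttccatgtgggg
Intron 20, second target: taccattacatttgtcagggg

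The libraries held 6549436 and 20656904 assigned counts for the wild type against 25514980 and 39587799 for the knockout. The shallowest library was the first wild-type one, and the 10 genes with the largest shares took 28.7% and 53% of the counts in the wild-type libraries and 52% and 38.8% in the Mov10l1-/- libraries. The larger shares stood in the pair with a common code, not in one genotype. Levels are given as CPM, the count of a gene scaled to a common library size, after trimmed-mean (TMM) scaling, which lessens the weight of such shares. On the log2 CPM scale the wild-type libraries correlated at 0.975 and the knockout libraries at 0.988 across genes, and libraries of different genotype at 0.779 to 0.849. Gene symbols were at hand for 1013 of the 14834 genes tested. They come from the study's lists of genes that differed in newborn or 9 dpp testes or in oocytes, so the named genes are not a random draw. Levels were not divided by transcript length and are compared only between libraries, never between genes.

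The targeted gene separated the genotypes. Mov10l1 stood at 124 and 115 CPM in wild-type testes and at 0.101 and 0.114 CPM in Mov10l1-/- testes. The genotypes did not overlap, and the gene was 1037-fold lower in the knockout (log2 fold change -10.02, SE 0.28, adjusted p = 4.92e-06 by the quasi-likelihood test of edgeR, with Benjamini-Hochberg adjustment across all genes). The count covers all exons of the gene, not exon 20 alone. The value does not separate loss of the transcript from loss of the cells that carry it: in whole-testis RNA, fewer cells of a type and less RNA per cell cannot be told apart.

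Across the transcriptome, 2535 genes were higher in Mov10l1-/- testes (17.1% of the genes tested) and 3102 were lower (20.9%) at an adjusted p below 0.01 by edgeR, 38% in either direction. Among the 1013 genes with a symbol, from which the lists below were drawn, 286 were higher and 332 lower. These shares exceed those over all genes, so a list stands out less beside them. In 80.7% of all genes the libraries of the genotypes did not overlap, called or not. The sizes differed between the directions. Genes called lower had a median log2 change of 2.30 in size, and 1183 of them (38.1%) differed by at least 8-fold. Genes called higher had a median change of 1.36, and 32 (1.26%) reached 8-fold. In 375 of the lower genes no Mov10l1-/- library held more than 3 counts, which was taken as the floor of detection in a library, whereas 11 of the higher genes were at that floor in the wild type. In the pair of libraries with a common code, all 5637 called genes differed in the same direction as in the full comparison. The genotypes overlapped in no called gene, so any such pair had to agree, and this is no separate support. The p-values rest on 2 libraries a genotype, and edgeR draws the spread of each gene toward that of the other genes.

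The split between the directions depended on the scaling. The median log2 fold change of all genes was 0.04 after TMM scaling and -0.17 when libraries were scaled to their totals, which left 172 genes higher and 1994 lower. With TMM factors taken only from genes that were not lower in adult Mov10l1-/- testes, the median was -0.35, and 1262 genes were higher and 4210 lower. The share of higher genes among the called genes was 45% after TMM scaling, 7.94% with library totals and 23.1% with the restricted factors. No called gene changed its sign under these settings. Without the second Mov10l1-/- library, 1024 genes were called higher and 1764 lower.

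**Figure D1:**
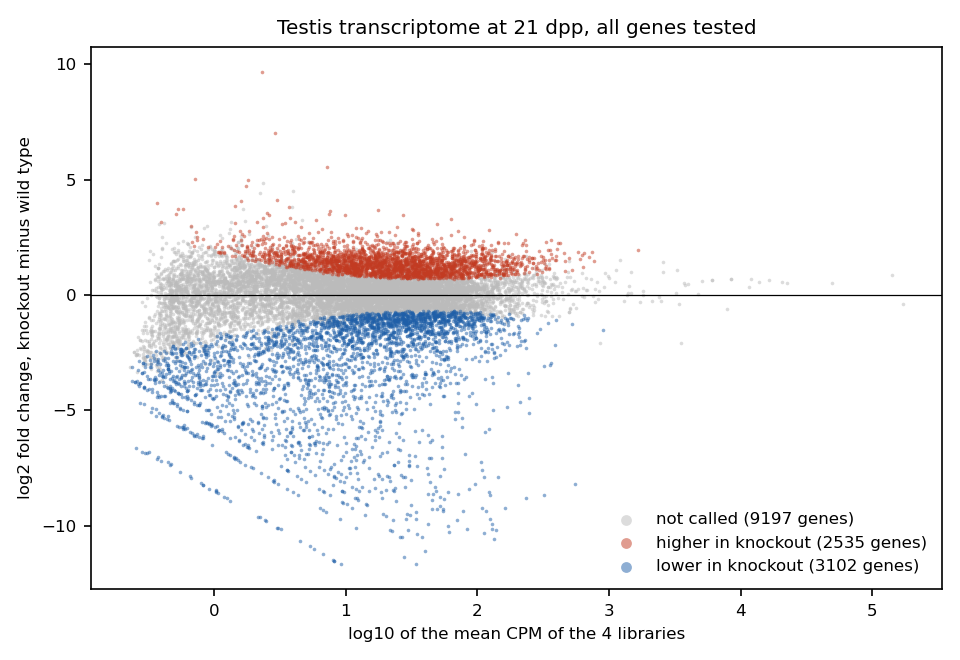
Each point is 1 of the 14834 genes tested, placed by the log10 of its mean CPM over the 4 libraries (x axis) and by its log2 fold change, knockout minus wild type (y axis); colours give the call at an adjusted p below 0.01. The 3102 lower genes reach below -10 on the log2 scale, and all but 4 of the 2535 higher genes stay under 5.

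The transcripts of the piRNA pathway were lower throughout, most of them by far, with smaller losses in Tex15, Tdrd7 and Henmt1. All 16 tested members of a list of 17 pathway genes were lower in Mov10l1-/- testes, against 20.9% of all genes, with a median log2 fold change of -8.20 against 0.04 over all genes tested. With Gtsf1, the member at the floor in the knockout, set to its bound, the median was -7.98. The list was drawn from genes named in the study's tables and is no independent sample. Piwil3 had too few counts for a test.

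Ddx4, the RNA helicase that marks germ cells of all stages after the prenatal period, stood at 337 and 214 CPM in wild-type testes and at 0.101 and 0.295 CPM in the knockout. The genotypes were separated by a log2 fold change of -10.20 (SE 0.46, adjusted p = 7.51e-06). The PIWI genes, whose products bind piRNAs, followed: Piwil1, the partner of pachytene piRNAs, fell from 358 and 154 CPM to 0.304 and 0.182 CPM (log2 fold change -10.13, SE 0.60). Piwil2, which acts in spermatogonia and spermatocytes, fell from 179 and 133 CPM to 0.101 and 0.295 CPM (log2 fold change -9.37, SE 0.38). Piwil4, the nuclear PIWI gene of fetal and spermatogonial cells, was low in the wild type too, with 4.84 and 4.06 CPM, against 0.203 and 0.114 CPM in the knockout (log2 fold change -4.88, SE 0.46). No wild-type library overlapped a knockout library for these genes.

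Transcripts of Tudor-domain scaffolds and other partners of PIWI proteins were lower as well. Tdrd1 was measured at 422 and 230 CPM in wild-type testes and at 0.609 and 0.499 CPM in the knockout (log2 fold change -9.22, SE 0.44). Tdrd9 fell by 8.63 on the log2 scale, Rnf17 fell by 8.52 and Mael fell by 8.40. Gtsf1, a zinc-finger cofactor of PIWI proteins, was at 25.0 and 19.9 CPM in wild-type testes and at the floor in both knockout libraries, at least 204-fold lower. Btbd18, a regulator of pachytene piRNA transcription, fell by 7.96.

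The members with the smallest losses were Tex15, Tdrd7 and Henmt1. Tex15 stood at 235 and 183 CPM in wild-type testes and 30.1 and 27.1 CPM in the knockout (log2 fold change -2.87, SE 0.22). Tdrd7 stood at 114 and 63.3 CPM against 14.9 and 13.7 CPM (log2 fold change -2.63, SE 0.29). Henmt1, the methyltransferase of piRNA 3′ ends, was the smallest change of the list (log2 fold change -1.62, SE 0.33). Its call was lost without the second Mov10l1-/- library and with library totals as the scale (adjusted p = 0.0204 with totals in edgeR's test).

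Genes of meiotic prophase were lower without exception. All 18 members were called lower, against 20.9% of all genes, with a median log2 fold change of -6.89. Hormad1, which marks unsynapsed chromosome axes, was at 237 and 208 CPM in wild-type testes and at 0.0507 and 0.227 CPM in the knockout (log2 fold change -10.32, SE 0.39, adjusted p = 4.92e-06). Sycp1, the transverse filament of the synaptonemal complex, fell from 538 and 403 CPM to 0.963 and 1.11 CPM (log2 fold change -8.80, SE 0.33). Sycp3, its axial element, fell less, from 254 and 192 CPM to 3.65 and 3.56 CPM (log2 fold change -5.95, SE 0.26). Meioc, needed to stay in meiotic prophase, fell by 9.70 on the log2 scale, Boll fell by 9.25 and Smc1b, a meiotic cohesin, had a log2 fold change of -7.89. Majin, which tethers telomeres to the nuclear envelope, was at least 366-fold lower. Shoc1 (log2 fold change -2.93, SE 0.25) and Rec114 (-2.98, SE 0.26), both of the recombination machinery, changed least.

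A list of genes of late spermatocytes and spermatids behaved alike, with 18 of 18 tested members lower, against 20.9% of all genes. The median log2 fold change was -7.86. Odf1, a sperm tail gene, had too few counts at this age for a test. Adad2, a double-stranded RNA binding protein, was at 67.2 and 52.3 CPM in wild-type testes and at the floor in the knockout, at least 543-fold lower. Pbp2 was at least 519-fold lower. Tex101, a surface protein of germ cells from spermatocytes on, fell from 61.8 and 55.3 CPM to 0 and 0.114 CPM (log2 fold change -9.47, SE 0.42). Ybx2, a germ-cell RNA binding protein, varied within the wild type, at 358 and 136 CPM, and stood at 0.609 and 0.590 CPM in the knockout. The wild-type libraries were also apart for Brdt (94.3 and 38.8 CPM) and Slc26a8 (44.1 and 14.0 CPM), and in each case the first was the higher. D1Pas1 fell by 9.25 and Usp26 had a log2 fold change of -8.32, and Sox30 was at least 185-fold lower. With the 3 members at the floor set to their bounds the median was -7.68.

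Spermatogonial genes were lower in most cases but not in all. Of 20 members, 15 were lower, 1 was higher and 4 were not called, with a median log2 fold change of -4.61. Over all genes, 20.9% were lower and 17.1% higher. Sohlh1, a transcription factor of differentiating spermatogonia, stood at 20.4 and 33.4 CPM in wild-type testes and 0.254 and 0.136 CPM in the knockout (log2 fold change -7.22, SE 0.42, adjusted p = 1.87e-05). Dazl, a translational regulator of germ cells, fell from 180 and 137 CPM to 1.17 and 1.48 CPM (log2 fold change -6.87, SE 0.27). Sall4, a factor of undifferentiated spermatogonia, fell from 13.2 and 10.7 CPM to 0.203 and 0.204 CPM (log2 fold change -5.83, SE 0.34). Tfap2c, Uchl1 and Trim71 had log2 fold changes of -6.16, -6.10 and -5.83. With the 2 members at the floor set to their bounds the median was -4.47.

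Members not called included genes that cells other than spermatogonia also express. Kit, the receptor of stem cell factor, which Leydig cells carry as well, stood at 41.6 and 41.5 CPM in wild-type testes and 29.9 and 33.3 CPM in the knockout (log2 fold change -0.39, SE 0.17, adjusted p = 0.0754). Zbtb16, which marks spermatogonial progenitors, gave 7.26 and 5.16 CPM against 2.08 and 3.43 CPM (log2 fold change -1.13, SE 0.34, adjusted p = 0.0240); its call appeared under 6 of the other settings, among them with the second wild-type library left out. Etv5, a transcription factor of stem cells and Sertoli cells, was the one member called higher, from 5.39 and 5.91 CPM to 11.7 and 14.5 CPM (log2 fold change 1.21, SE 0.23, adjusted p = 0.00302). The Etv5 call was lost without the second Mov10l1-/- library (adjusted p = 0.0378), with the restricted TMM factors (0.0175), with library totals (0.226) and in a joint fit with 13 dpp and adults (0.0101).

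Summed over members, the piRNA list came to 2512 and 1632 CPM in wild-type testes against 54.5 and 49.0 CPM in Mov10l1-/- testes. The meiotic list held 2293 and 1697 CPM against 14.9 and 16.3 CPM, and the spermatogonial list 466 and 420 CPM against 62.8 and 73.1 CPM. Kit and Etv5, which cells other than spermatogonia also express, made up most of the spermatogonial sum in the knockout. Tex15 and Tdrd7 made up most of the piRNA sum there. These sums are therefore no measure of the germ cells that remain. For each list the knockout libraries lay far below the wild-type libraries. Per-library values for these and the somatic genes are plotted together.

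**Figure D2:**
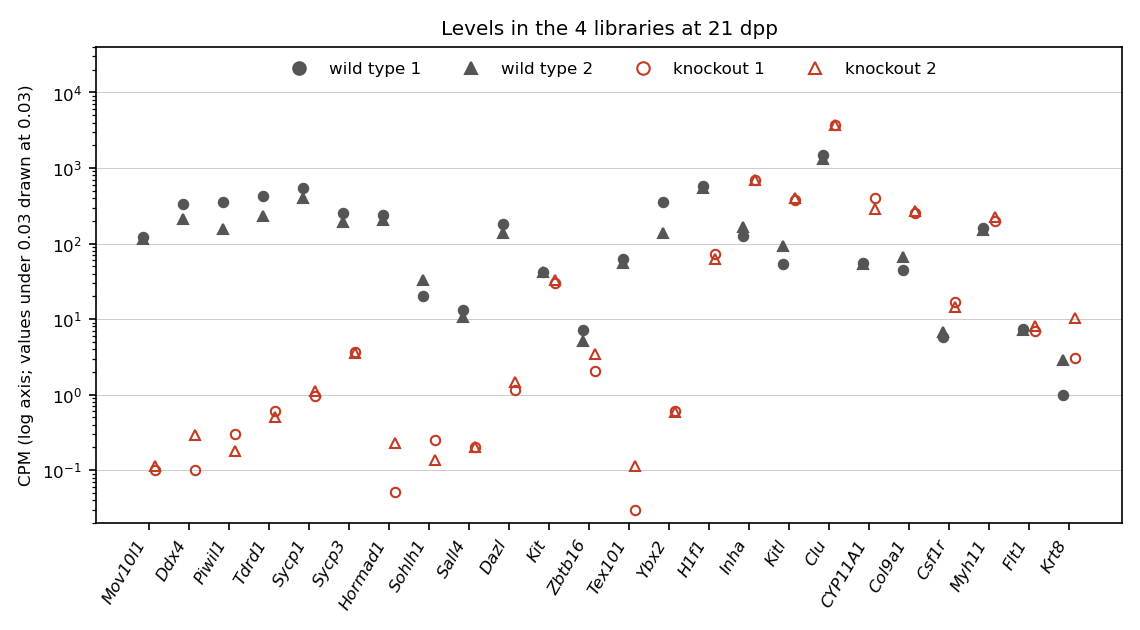
CPM on a log axis of 24 named genes in the 2 wild-type (filled grey) and 2 Mov10l1-/- libraries (open red) at 21 dpp; values under 0.03 CPM are drawn at 0.03. Germ-cell genes from Ddx4 to Dazl and Tex101 and Ybx2 lie below 4 CPM in both knockout libraries, Kit and Flt1 lie close in both genotypes, and Inha, Kitl, Clu and CYP11A1 lie higher in the knockout.

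Sertoli cell genes were higher in Mov10l1-/- testes. Of 8 members, 6 were called higher and none lower, against 17.1% of all genes called higher, with a median log2 fold change of 1.71. Kitl, the ligand of the Kit receptor, stood at 53.8 and 92.5 CPM in wild-type testes and at 376 and 399 CPM in the knockout (log2 fold change 2.401, SE 0.29, adjusted p = 4.44e-04). Inha, the inhibin alpha subunit, rose from 127 and 168 CPM to 700 and 701 CPM (log2 fold change 2.25, SE 0.26). Cst12, a cystatin of Sertoli cells, rose from 91.2 and 131 CPM to 626 and 484 CPM (log2 fold change 2.32, SE 0.28). Ptgds, a prostaglandin D synthase, was 2.01 higher on the log2 scale, Sox8 1.36 and Inhbb 1.34. CPM is measured relative to the rest of a library. In these gains and those of other somatic genes below, more RNA per cell and a larger share of somatic cells cannot be told apart.

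Clu, an abundant secreted chaperone, was at 1472 and 1330 CPM in wild-type testes and 3715 and 3734 CPM in the knockout. Its genotypes did not overlap, but the call was missed (log2 fold change 1.41, SE 0.35, adjusted p = 0.0103). Rspo1 was low and not called (log2 fold change 0.75, SE 0.50, adjusted p = 0.235). Without the second Mov10l1-/- library, Sox8 and Inhbb gave an adjusted p of 0.0107 and 0.0180, and 4 members were called higher. With library totals as the scale, 3 were. The median of the list lay between 1.31 and 1.74 under the other scalings.

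The list of sterol and steroid genes was divided. CYP11A1, which makes pregnenolone from cholesterol as the first step of steroid synthesis in Leydig cells, rose from 54.7 and 54.3 CPM to 395 and 288 CPM (log2 fold change 2.65, SE 0.24, adjusted p = 1.23e-04). Mvk, mevalonate kinase, was higher by 1.31 (SE 0.26), a call that was lost when either Mov10l1-/- library was left out (adjusted p = 0.0194 without the first and 0.0126 without the second). The other 3 of 5 members, Idi1, Por and Hmgcs1, were not called. Higher calls made up 17.1% of all genes and 286 of the 1013 genes with a symbol. With library totals 1 member was higher, and with the restricted TMM factors 1 was higher and 1 lower. Mvk was not called under either scaling (adjusted p = 0.177 and 0.0155 in edgeR's test).

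Genes of the extracellular matrix were higher in 10 of 16 cases and lower in none, against 17.1% of all genes called higher, with a median log2 fold change of 1.16. The count of higher members was 2 with library totals, 4 with the restricted TMM factors, 4 after thinning the libraries to the smallest total, 6 without the first Mov10l1-/- library and 3 without the second. Col9a1 and Col9a2 encode chains of collagen IX. Col9a1 rose from 44.2 and 65.8 CPM to 258 and 269 CPM (log2 fold change 2.25, SE 0.25, adjusted p = 2.73e-04), and Col9a2 from 4.07 and 7.01 CPM to 28.5 and 30.6 CPM (log2 fold change 2.38, SE 0.27). Col14a1 was higher by 1.84, Col18a1 by 1.57, Tnxb by 1.39 and Tnc by 1.37. Col1a1 differed between the wild-type libraries (84.4 and 308 CPM) and was not called (knockout 481 and 520 CPM, adjusted p = 0.0541), but it was called higher without the second wild-type library (adjusted p = 2.64e-05). With the second Mov10l1-/- library left out, Col18a1, Tnxb and Tnc were not called (adjusted p = 0.0265, 0.0391 and 0.0265).

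Markers of leukocytes were higher in 5 of 10 tested cases, with a median log2 fold change of 1.37. Higher calls made up 17.1% of all genes and 286 of the 1013 genes with a symbol. Mertk, a phagocytic receptor that Sertoli cells also carry, rose from 21.5 and 26.1 CPM to 99.2 and 85.9 CPM (log2 fold change 1.95, SE 0.19, adjusted p = 1.63e-04). Csf1r, the receptor that defines macrophages, rose from 5.72 and 6.72 CPM to 16.6 and 14.3 CPM (log2 fold change 1.30, SE 0.22), a call lost when either Mov10l1-/- library was left out (adjusted p = 0.0115 without the first and 0.0108 without the second). Ighm, Il10ra and Cytip were higher by 1.88, 1.85 and 1.44, and Ighm gave an adjusted p of 0.0108 without the second Mov10l1-/- library. Nckap1l, a gene of blood cells chosen after its values were seen, lay the other way, at 11.2 and 6.72 CPM against 4.16 and 3.38 CPM (log2 fold change -1.24, SE 0.31), and was not called (adjusted p = 0.0111). With DESeq2, with the replicate block and under several other settings 1 member of the list was called lower. Cd3e, a T cell marker, stayed below 1 CPM in every library and was not called, although it was called lower without the second Mov10l1-/- library (adjusted p = 0.00689). The leukocyte list then had 3 higher members, and with library totals as the scale it had 0. Summed over the list, it came to 65.0 and 75.3 CPM in wild-type testes against 214 and 183 CPM. Mertk, which Sertoli cells also carry, and Cytip made up most of the sum in each library, so it is no measure of leukocytes. The part of leukocytes in the other somatic results was not tested.

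In the vessel, muscle and surface lists a smaller share of the members was called. In the smooth muscle and peritubular list, 2 of 7 members were lower, Tagln by 1.04 and Flnc by 0.85, and none was higher, against 20.9% lower and 17.1% higher over all genes, so that the count is near that of all genes. Myh11, the smooth muscle myosin, stood at 162 and 152 CPM against 201 and 224 CPM (adjusted p = 0.0908), and Des at 12.7 and 15.4 CPM against 16.0 and 12.1 CPM. Of 4 endothelial genes only Mcam was called, lower by 0.99, and Flt1 stood at 7.48 and 7.18 CPM against 6.998 and 7.99 CPM. The Tagln, Flnc and Mcam calls were lost without the second Mov10l1-/- library (adjusted p = 0.0291, 0.0292 and 0.0399). Without the first, Flnc and Mcam were lost too (adjusted p = 0.0769 and 0.0142).

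In the list of mesothelial and epithelial genes, Krt19 alone of 9 was called, against 17.1% of all genes called higher, at 38.5 and 38.2 CPM against 87.9 and 90.5 CPM (log2 fold change 1.22, SE 0.16, adjusted p = 6.67e-04). Krt8, a simple-epithelium keratin, was high in one library only, with 0.990 and 2.84 CPM in wild-type testes and 3.04 and 10.2 CPM in the knockout, and was not called (adjusted p = 0.0464). Msln (adjusted p = 0.0716) and Upk3b (adjusted p = 0.445) were not called either and were highest in the same library, the second of the knockout. Without the second wild-type library Krt8, Msln and Upk3b were called higher (adjusted p = 0.00780, 0.00888 and 0.00746), and without the first Mov10l1-/- library Krt8 and Msln were (adjusted p = 0.00246 and 0.00599). In all, 5 of the 9 members were called higher in the former case and 6 in the latter. The summed list held 46.8 and 55.7 CPM in wild-type testes and 106 and 145 CPM in the knockout. The part of attached surface or duct tissue in the second Mov10l1-/- library was not tested.

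Of 7 tested genes that mark other tissues, 1 was higher and 3 were lower, against 17.1% and 20.9% of all genes. Apoa1, an apolipoprotein, rose from 9.35 and 6.60 CPM to 37.0 and 34.3 CPM (log2 fold change 2.18, SE 0.22). Apob, Myom2 and Clcn1, genes of liver and muscle, were under 3 CPM in wild-type testes and had log2 fold changes of -3.23, -2.43 and -3.54. The Myom2 call was lost without the first wild-type or the second Mov10l1-/- library (adjusted p = 0.0135 and 0.0327), and the Clcn1 call without either Mov10l1-/- library (adjusted p = 0.0158 and 0.0134). The embryonic globin Hbb-y was not called (adjusted p = 0.127) except without the second wild-type library (adjusted p = 0.00482).

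**Figure D3:**
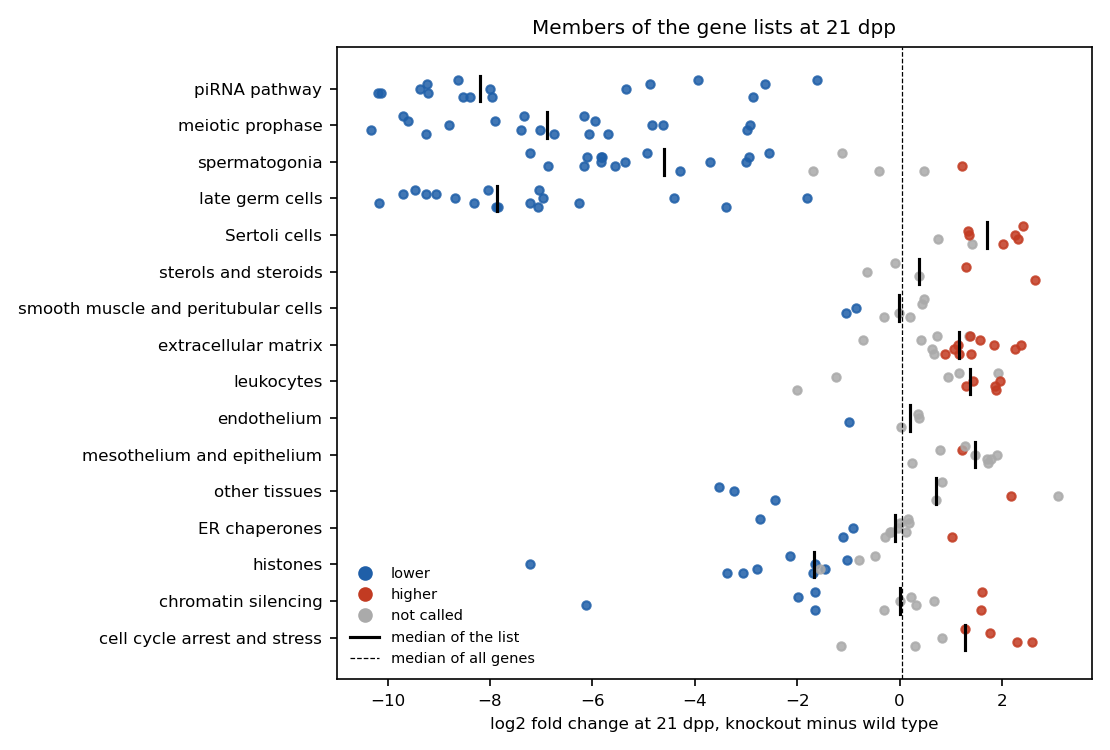
Log2 fold change at 21 dpp (x axis, knockout minus wild type) of each tested member of 16 gene lists, coloured by call; the black bar is the median of a list and the dashed line the median of all genes, 0.04. The 4 germ-cell lists lie to the left with medians from -8.20 to -4.61, and the Sertoli, mesothelium and epithelium, leukocyte, cell cycle arrest and matrix lists to the right with medians of 1.71, 1.47, 1.37, 1.28 and 1.16.

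Histone genes were lower in 9 of 12 cases, against 20.9% of all genes, and higher in none, with a median log2 fold change of -1.67. H2bc1, the H2B variant made in spermatocytes, fell from 265 and 160 CPM to 1.57 and 1.32 CPM (log2 fold change -7.22, SE 0.35, adjusted p = 9.17e-06). It is also a member of the late germ cell list. H2aw fell by 3.38, H1f1 fell by 3.06, H2ax, which is phosphorylated at DNA breaks, fell by 2.79 and H2bc3 fell by 2.14 on the log2 scale. H1f1 stood at 587 and 551 CPM against 73.2 and 63.1 CPM, and the genotypes did not overlap. H2bc18 was lower by 1.02, and its call, though not its direction, was lost without the first or the second Mov10l1-/- library (adjusted p = 0.0371 and 0.0630).

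Among genes of chromatin silencing, 4 of 11 were lower and 2 higher, against 20.9% and 17.1% of all genes. The higher share is near that of all genes, and the lower share near that of genes with a symbol (332 of 1013). The median was 0.003, which became negative with RLE size factors, library totals or the restricted factors. Chd5, a chromatin remodeller of maturing germ cells, fell from 13.4 and 7.47 CPM to 0.152 and 0.136 CPM (log2 fold change -6.13, SE 0.47). Tasor2 was lower by 1.98, Kdm2b by 1.65 and Kdm1b by 1.64, the last not called without the second Mov10l1-/- library (adjusted p = 0.0106). Tet1, a 5-methylcytosine oxidase, rose from 10.5 and 9.39 CPM to 28.9 and 31.7 CPM (log2 fold change 1.62, SE 0.19). Apobec3, a cytidine deaminase that restricts retroelements, rose from 18.2 and 23.5 CPM to 61.0 and 64.7 CPM (log2 fold change 1.59, SE 0.19). With library totals as the scale neither rise was called (adjusted p = 0.0960 and 0.0870).

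Most chaperones of the endoplasmic reticulum were not called. Of 12 members, 3 were lower and 1 was higher, which is close to the 20.9% and 17.1% of all genes. Sdf2l1 fell from 26.5 and 19.1 CPM to 3.65 and 3.27 CPM (log2 fold change -2.72, SE 0.25). Hyou1 was lower by 1.10, Dnajb11 by 0.91 and Sec61b, a channel subunit, higher by 1.02. Each of the calls for Hyou1, Dnajb11 and Sec61b was lost when either Mov10l1-/- library was left out (adjusted p from 0.0112 to 0.0509).

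Of 7 genes of cell cycle arrest and stress, 4 were higher, against 17.1% of all genes, and 2 were with library totals as the scale. Tp53inp2, an autophagy factor, rose from 16.6 and 19.2 CPM to 101 and 116 CPM (log2 fold change 2.59, SE 0.19, adjusted p = 4.53e-05). Cdkn1c, a cyclin-dependent kinase inhibitor, rose from 8.69 and 10.1 CPM to 44.6 and 48.8 CPM (log2 fold change 2.30, SE 0.19). Ddit4, an inhibitor of mTOR signalling, was higher by 1.76 and Gadd45a by 1.28, the latter with an adjusted p of 0.0198 without the second Mov10l1-/- library. Kif5c, a kinesin whose locus gives piRNAs in the hamster testis, stood at 42.9 and 76.5 CPM against 124 and 151 CPM (log2 fold change 1.20, SE 0.28, adjusted p = 0.00828). That call was lost without the first wild-type or the second Mov10l1-/- library (adjusted p = 0.0124 and 0.0475), and also with library totals, upper-quartile factors, the restricted TMM factors, thinning or the joint fit with other ages (adjusted p from 0.0106 to 0.208 for Kif5c). Lypd6b had too few counts for a test.

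Outside the lists, the largest losses with a symbol were in Ptchd3, Lypd9 and Gm364. Ptchd3, a patched-domain protein of the germ line, fell from 273 and 260 CPM to 0.152 and 0.182 CPM (log2 fold change -10.55, SE 0.31, adjusted p = 4.92e-06). Gm364 fell from 223 and 298 CPM to 0.203 and 0.295 CPM (log2 fold change -9.92, SE 0.35). Lypd9 had no count in either knockout library and was at least 81.4-fold lower. Among genes without a symbol, ENSMAUG00000015804 was at least 624-fold and ENSMAUG00000017748 at least 166-fold lower.

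The largest gains with a symbol were smaller, and CYP11A1 and Tp53inp2, described above, were among them. Vdr, the vitamin D receptor, rose from 0.990 and 1.22 CPM to 11.5 and 16.98 CPM (log2 fold change 3.66, SE 0.33, adjusted p = 1.11e-04). Reep1, a protein that shapes the endoplasmic reticulum, rose from 4.51 and 4.52 CPM to 53.4 and 46.9 CPM (log2 fold change 3.47, SE 0.20). Lpl, lipoprotein lipase, rose from 8.69 and 12.2 CPM to 102 and 75.1 CPM (log2 fold change 3.06, SE 0.25). Inhba, the activin A subunit, rose from 2.31 and 3.30 CPM to 21.6 and 21.1 CPM (log2 fold change 2.89, SE 0.24).

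Tmprss13, a membrane protease, was higher by 2.86, Snai2, a transcriptional repressor, by 2.69, Elovl7, which elongates fatty acids, by 2.58 and Id3, an inhibitor of helix-loop-helix factors, by 2.50. Inhba, Inha and Inhbb, which encode inhibin and activin subunits, were each higher. The unnamed genes ENSMAUG00000013848 and ENSMAUG00000020419 were at the floor in both wild-type libraries and at least 23.0-fold and 18.5-fold higher. They were uneven in the knockout, at 9.84 and 1.75 CPM and at 8.06 and 1.25 CPM.

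The adult libraries, none of which entered the 21 dpp comparison, gave classes of genes to compare with. Of the 4903 genes lower in adult Mov10l1-/- testes and tested at both ages, 2346 (47.8%) were lower at 21 dpp and 171 (3.49%) were higher. Of the 5706 genes higher in adult Mov10l1-/- testes, 2099 (36.8%) were higher at 21 dpp and 122 (2.14%) were lower. Among all 14409 genes tested at both ages the shares were 20.8% lower and 17.5% higher. Read from 21 dpp, 78.1% of the lower and 83.3% of the higher genes fell in the matching adult class. In adults, 74.4% of all genes were called, 37.1% higher and 37.2% lower. The share of adult-lower genes that were lower at 21 dpp was 28.7% without the second Mov10l1-/- library of 21 dpp.

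Normal development between 13 dpp and adulthood gave a second grouping from wild-type libraries alone, in which 47.2% of the genes were called, 26.7% as rising and 20.5% as falling. Both groupings use the same adult wild-type libraries and are not independent. Among the genes lower in adult knockouts and tested in each comparison, 2978 rose, 38 fell and 1842 were not called in development. Of the 3268 genes that rose from 13 dpp to the adult wild type, 1529 (46.8%) were lower in Mov10l1-/- testes at 21 dpp and 155 (4.74%) were higher. Of the 3029 genes that fell over that span, 1140 (37.6%) were higher and 251 (8.29%) lower. The class of genes that fell in development and were not called in adult knockouts held 482 genes, of which 149 (30.9%) were lower at 21 dpp, against 14.1% of all genes not called in adults. Without the second adult wild-type library 4239 genes were called between 13 dpp and adults in place of 6997.

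**Figure D4:**
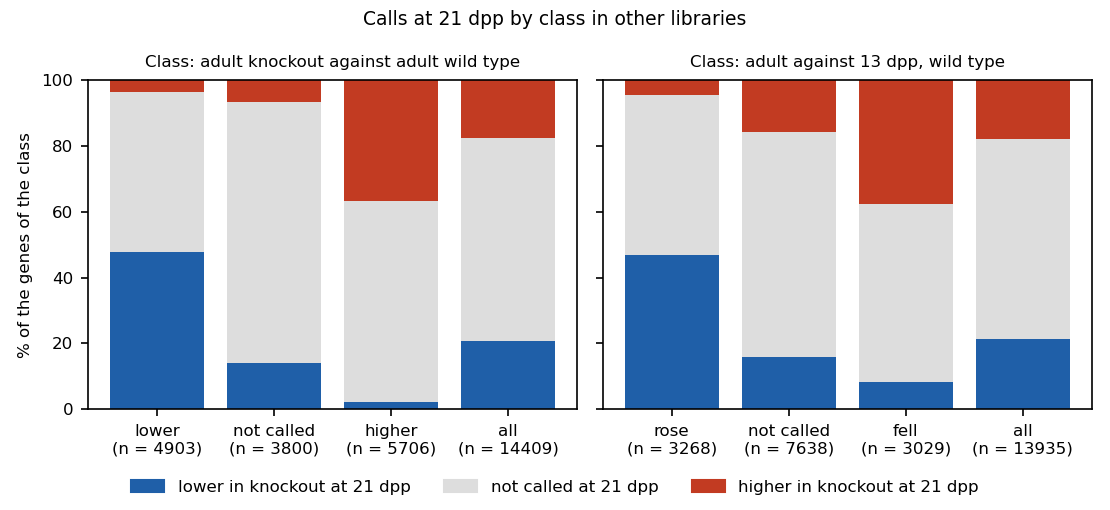
Share of genes (y axis, per cent) called lower, not called or called higher in Mov10l1-/- testes at 21 dpp, for classes set by adult knockout against adult wild type (left) and by adult against 13 dpp wild type (right). Genes lower in adult knockouts are 47.8% lower at 21 dpp and genes that rose in development 46.8%, against 20.8% and 21.4% of all genes. Both sets of classes use the same adult wild-type libraries and share many genes.

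The effect of the genotype at 21 dpp was then tested against that at other ages as an interaction. Between 21 and 13 dpp, 314 of 14941 genes (2.1%) differed in effect, 309 more negative (2.07%) and 5 more positive (0.0335%) at 21 dpp. At 13 dpp itself 16 genes (0.121%) were called, all lower. Few calls did not mean a small effect on germ-cell genes there. Median log2 fold changes at 13 dpp were -3.73 (piRNA), -3.30 (meiotic), -4.24 (spermatogonial) and -3.24 (late germ cells), against 0.02 over all genes. Of these lists 2 of 16, 4 of 18, 0 of 20 and 7 of 18 members differed in effect between 21 and 13 dpp. The same-numbered libraries of 13 dpp share the first part of their animal codes across genotypes, and their deviations from the genotype means correlated at 0.183 across genes. With that number as a replicate block, 19 genes were higher and 458 lower at 13 dpp, and 529 genes differed in effect between 21 and 13 dpp. Tex101 stood at 0.744 and 0.448 CPM in the wild type at 13 dpp and at 61.3 and 55.1 CPM at 21 dpp, with all libraries of 13 dpp, 21 dpp and adults scaled together; in the knockout the values were 1.30 and 0.0558 CPM at 13 dpp and 0 and 0.127 CPM at 21 dpp. The interaction for Tex101 was -9.21 (SE 1.52, adjusted p = 0.00734). For Ddx4 the wild type went from 13.7 and 28.7 CPM at 13 dpp to 334 and 213 CPM at 21 dpp, and the knockout stood at 4.71 and 0.948 CPM and then at 0.112 and 0.331 CPM. The 13 dpp knockout libraries were apart, the first with more germ-cell signal than the second. When either Mov10l1-/- library of 21 dpp was left out, 1 gene was called in this interaction, and without the first wild-type library 62 were.

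Between 21 dpp and adults, 6684 of 16406 genes (40.7%) differed in effect, 3024 more positive (18.4%) and 3660 more negative (22.3%) at 21 dpp. Of the spermatogonial list, 15 members were lower at 21 dpp, whereas in adults 4 were lower and 5 higher, with a median of 0.05. Over all genes, 37.2% were lower and 37.1% higher in adults. Between the ages, 16 members differed. CPM is relative to the rest of a library, which in adult wild-type testes includes late germ-cell transcripts (Odf1 at 1748 and 2144 CPM). Whether spermatogonia recovered in adult knockouts was not tested. For Sohlh1 the interaction was -6.98 (SE 0.56, adjusted p = 1.68e-05), with a log2 fold change of -7.22 at 21 dpp and -0.23 in adults. In the jointly scaled libraries Sohlh1 stood at 20.2 and 33.2 CPM in wild-type testes and 0.279 and 0.153 CPM in the knockout at 21 dpp, and at 4.01 and 2.41 CPM and 3.23 and 2.92 CPM in adults. Sall4 followed the same course, from 0.223 and 0.229 CPM in the knockout at 21 dpp to 3.29 and 3.00 CPM in the adult knockout, while the wild type went from 13.1 and 10.7 CPM to 1.63 and 1.23 CPM. The adult animals were 65 and 23 weeks old in the wild type and 63 and 53 weeks old in the knockout.

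Some genes were called in opposite directions at the 2 ages. Of 14409 genes tested at both ages, 122 were lower at 21 dpp and higher in adults, and 171 were higher at 21 dpp and lower in adults. All of them passed the interaction test, which adds no support, because opposite calls in the same libraries all but fix that outcome. Fgfr3 and Ret, receptors of spermatogonial growth signals and chosen here after their values were seen, were in the first group. Fgfr3 was lower by 3.70 at 21 dpp (15.1 and 16.5 CPM against 1.42 and 1.07 CPM) and higher by 1.55 in adults, with an interaction of -5.23 (adjusted p = 1.12e-05). Ret was lower by 2.99 at 21 dpp and higher by 1.37 in adults. In the second group, Vdr had log2 fold changes of 3.66 at 21 dpp and -3.64 in adults, Cdkn1c of 2.30 and -1.65 and Tnc of 1.37 and -3.87. The Tnc call at 21 dpp was lost without the first wild-type library or either Mov10l1-/- library (adjusted p = 0.0110, 0.0193 and 0.0265).

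Between 21 and 9 dpp, 6003 of 16906 genes (35.5%) differed in effect, 3137 more positive (18.6%) and 2866 more negative (17%) at 21 dpp. The 9 dpp libraries were read as shorter single ends, and both of their Mov10l1-/- libraries carry the code of 1 animal, so that their spread is technical and age, read layout and animal cannot be told apart. With the 2 libraries taken as replicates, 63 genes (0.399%) were called at 9 dpp itself, 9 higher (0.057%) and 54 lower (0.342%). With them summed as 1 animal, edgeR called 0 genes at 9 dpp, where 1525 had an unadjusted p below 0.05, and 4025 genes (23.3%) differed in effect from 21 dpp. Under the summed fit 17 of 18 meiotic, 14 of 16 piRNA and 12 of 20 spermatogonial members were among the called genes. The knockout animal of 9 dpp is then assumed to vary like the other groups.

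**Figure D5:**
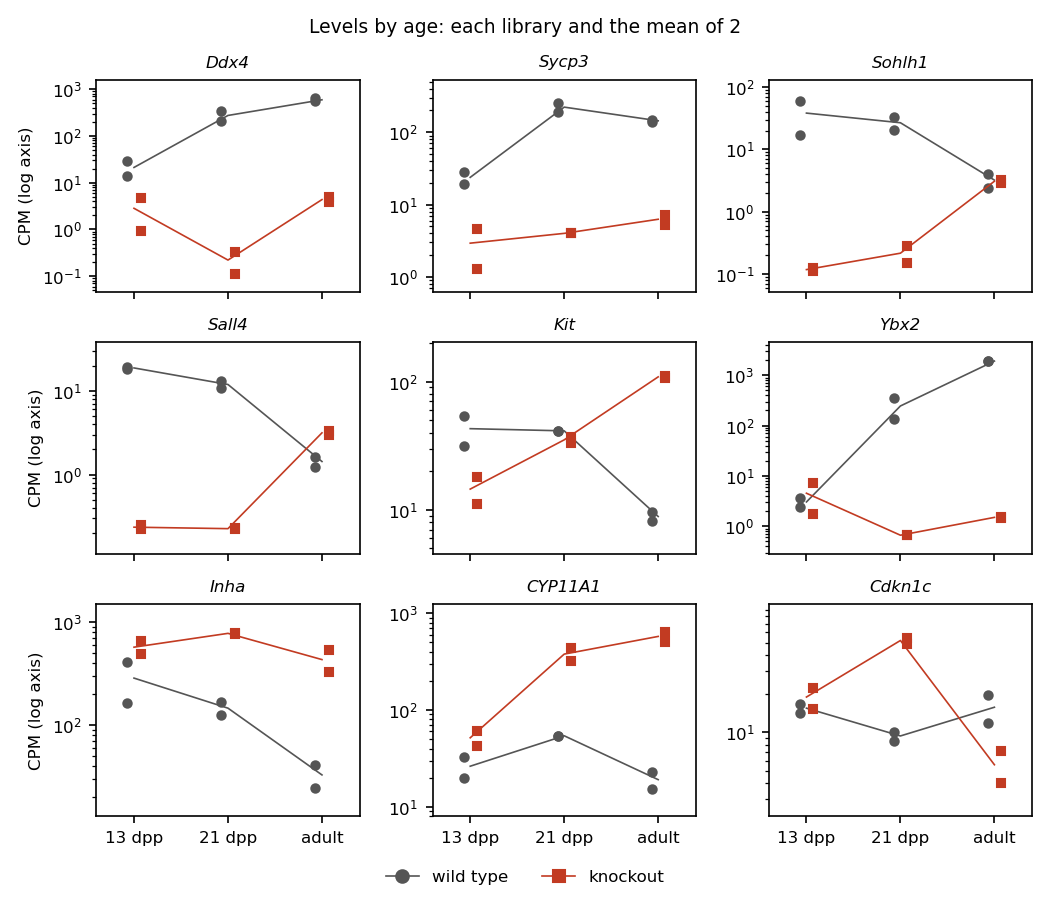
CPM on log axes of 9 genes at 13 dpp, 21 dpp and in adults, scaled jointly; grey circles are wild-type and red squares Mov10l1-/- libraries, 2 per age, and lines join their means. Ddx4 and Sycp3 rise from 13 to 21 dpp in the wild type and stay below 5 CPM in the knockout at both ages, Sohlh1 and Sall4 are below 1 CPM in the knockout at 21 dpp and near the wild-type level or above it in adults, and Cdkn1c is above the wild type at 21 dpp and below it in adults.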

How the data were processed

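RNA was extracted from whole testes and depleted of ribosomal RNA, although the labels' molecule field names polyA RNA. Directional libraries were sequenced as 150-nucleotide paired ends at 13 and 21 dpp and in adults and as 75-nucleotide single ends at 0 and 9 dpp. The authors deposited 1 table of estimated counts per gene, not normalized, in which reads that fit several places were counted in fractions (6.04% to 9.46% of the values at 21 dpp are not whole). The submitters' processing notes name STAR 2.7.3a, featureCounts 2.0.0 and bedtools 2.26.0, and per the study's methods exons of the Ensembl annotation of mesAur1 were counted; overlapping or near-identical genes may share reads.

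Values were rounded to whole numbers, genes were filtered with filterByExpr, and genotypes were compared with edgeR's quasi-likelihood test (edgeR 4.0.16, R 4.3.3) after TMM scaling, at a Benjamini-Hochberg adjusted p below 0.01, on the 4 libraries of 21 dpp. Standard errors were the log2 fold change divided by the root of the F statistic. Interactions, the adult comparison and the 13 dpp to adult comparison used the same test on the libraries named. Log2 ratios of single libraries used 0.5 CPM as an addition. A gene with at most 3 counts in both libraries of a genotype was at the floor, and its fold was computed against 3 counts per library, averaged as CPM over the genotype; this covers counting error only. DESeq2 1.42.0, other scalings and filters, thinning to the smallest total, a replicate block and each library left out were alternatives; a crossed block and the libraries left out of the interactions and class comparisons were added after seeing the data. The scripts were tested on simulated data.

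Gene symbols came from the gene name columns of the study's lists of differing genes. The members, the gene lists and the tests were chosen with earlier results of these data known. Named genes were Mov10l1; up to 6 called members of a list per direction, and uncalled members that define a cell type; the 10 largest changes per direction with a symbol, at least 1 CPM in one genotype and no overlap, and the 2 largest without a symbol; and the 3 largest interactions per direction. Rnf17, Mael, Btbd18, Usp26, Rspo1, Idi1, Por, Hmgcs1, Tex15, Tdrd7, Henmt1, Piwil4, Shoc1, Rec114, Sycp3, Ybx2, Brdt, Slc26a8, Kit, Krt8, Nckap1l, Col1a1, H2bc18, Fgfr3 and Ret were named after their values were seen. Columns of the authors' own comparisons were not used.

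The replicate numbers in the labels do not pair the 21 dpp animals: same-numbered libraries of that age deviated from their group means with a correlation of -0.242 across genes, and a common code joins wild type 2 with knockout 1. At 13 dpp the numbers do follow common codes, and a replicate block was fitted there; the 9 dpp Mov10l1-/- libraries, of 1 animal, were also summed. Both were added after seeing the data. The 2 wild-type libraries differed beyond counting noise (chi-square per degree of freedom 149), as did the 2 knockout libraries (192). Nothing says whether libraries came from separate litters beyond the codes.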

Additional observations from a re-analysis of the deposited data

Results flagged for a closer look

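The effect of the genotype at 21 dpp differed from that at another age in 314 genes against 13 dpp, in 6684 against adults and in 6003 against 9 dpp, by the interaction term of edgeR's test at an adjusted p below 0.01. The 6003 take 2 Mov10l1-/- libraries of 1 animal at 9 dpp as replicates; with them summed, 4025 genes were called. With a replicate block for the common codes at 13 dpp, the 314 became 529. The genes named here had the largest interactions in each direction among genes with a symbol.

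Against 13 dpp, Cpeb1, a regulator of translation, had an interaction of 3.12 on the log2 scale (adjusted p = 0.00192), with a log2 fold change of -0.90 at 21 dpp and -4.09 at 13 dpp. For Cacng4 the interaction was 3.009, with -1.03 at 21 dpp and -4.10 at 13 dpp. Col9a2 was the collagen gene among them, at 2.386, with 2.38 at 21 dpp and -0.06 at 13 dpp. The negative ones were Ptchd3 (-11.57), Lypd9 (-10.06) and Tex101 (-9.206). In the wild type these genes had mean levels of 1.16, 0.210 and 0.603 CPM at 13 dpp and 299.9, 10.1 and 66.0 CPM at 21 dpp. Each of the 6 calls was lost when the first wild-type library or either Mov10l1-/- library of 21 dpp was left out.

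Against adults, Odf1 (10.83), Gm11992 (9.484) and Satl1 (9.169) were more positive at 21 dpp. Their wild-type means were 0.139, 1.15 and 0.0832 CPM at 21 dpp and 1883, 29.4 and 31.0 CPM in adults. Odf1 and Satl1 were too low for a test at 21 dpp itself. Each of the 3 calls was lost without the second Mov10l1-/- library, and the Satl1 call was also lost without the first. Hmx3 (-7.328), Gm364 (-7.145) and Sohlh1 (-6.981) were more negative at 21 dpp. Hmx3 had a mean of 3.18 CPM in the wild type and 0.0229 CPM in the knockout at 21 dpp, and 0.289 and 0.513 CPM in adults.

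Against 9 dpp, Msln (5.084), Lrrn4 (4.219) and Egfl6 (4.148) were more positive at 21 dpp, but none of them was called at 21 dpp alone (adjusted p = 0.0716, 0.0916 and 0.0102). The Msln call was lost without the first wild-type or the second Mov10l1-/- library of 21 dpp and the Lrrn4 call without either Mov10l1-/- library, and neither was called with the 9 dpp Mov10l1-/- libraries summed (adjusted p = 0.0220 and 0.0232). Msln marks mesothelium, and the summed mesothelial and epithelial markers were highest in the second Mov10l1-/- library, whose part in this result was not tested. Ptchd3 (-14.33), Lypd9 (-10.22) and Hormad1 (-9.239) were more negative at 21 dpp. For Hormad1 the wild-type mean was 3.02 CPM at 9 dpp and 246 CPM at 21 dpp.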

How the results depend on the processing

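All called genes at 21 dpp kept their sign under every setting tried in which they were tested. For libraries left out this was largely fixed in advance, because the genotypes overlapped in no called gene. The count of higher genes, 2535, became 172 with library totals, 1262 with TMM factors taken without the genes lower in adult knockouts, 4357 without a filter and 4016 at an adjusted p below 0.05. It ranged from 1024 to 2934 with 1 library left out. The count of lower genes, 3102, became 1994 with library totals and ranged from 1764 to 3285 with 1 library left out. Among left-out libraries, the lowest counts came without the second Mov10l1-/- library. With the replicate block, 2587 genes were higher and 3110 lower. A crossed pairing, added after seeing the data, gave 3687 and 3932. It joined wild type 2 with knockout 1, and also the other wild-type with the other Mov10l1-/- library, which share no code.

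The 314 interactions with 13 dpp became 1327 without a filter and 968 with DESeq2 and 529 with a replicate block at 13 dpp, added after seeing the data, and ranged from 1 to 290 with 1 library left out, with 1 call when either Mov10l1-/- library and 62 when the first wild-type library was missing. The 47.8% of adult-lower genes that were lower at 21 dpp became 57.6% at an adjusted p below 0.05 and 43.5% with DESeq2, and ranged from 28.7% to 52.4% with 1 library left out. The 6997 genes called between 13 dpp and adult wild types ranged from 4239 to 9342.

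Changes of sign were seen for uncalled genes near 0 or at low counts. In the pair with a common code, Msln was at -0.052 and Upk3b at -0.357. Vwf was at -0.0231 with the restricted TMM factors. Flt1 was at -0.0121 with RLE size factors, -0.178 with library totals, -0.359 with the restricted factors, -0.0428 with at least 10 counts in every library, -0.321 after thinning, -0.0354 in the pair with a common code and -0.0795 to 0.145 with 1 library left out. Des was at 0.0215 with DESeq2, 0.0133 with upper-quartile factors, 0.156 without a filter, 0.150 in a joint fit of 13 dpp, 21 dpp and adults, 0.0501 in the pair with a common code and -0.200 to 0.168 with 1 library left out. The cause was not tested. The first wild-type library, with 6549436 counts, limits what low genes can show.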
